A study of Mus musculus with 6 samples.

Results

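The TREM receptors (triggering receptors expressed on myeloid cells) and the adaptors they signal through were examined in microglia that lack Bhlhe41, a basic helix-loop-helix transcription repressor. The set comprised 7 genes, chosen by name: the receptors *Trem1*, *Trem2*, *Trem3*, *Treml2* and *Treml4*, and the adaptors *Tyrobp* (DAP12) and *Hcst* (DAP10). Every probe whose RefSeq transcript belongs to 1 of these genes was taken, which gave 13 of the 56605 probes on the array and 7 of 23462 named genes. All 13 were tested, with no filter on dim signals. Microglia came from the brains of 3-month-old mice. The 3 samples labelled Ctrl were *Bhlhe41* dTomato-Cre/+ (B41HET), and the 3 labelled KO were *Bhlhe41* dTomato-Cre/dTomato-Cre (B41KO). The allele is a germline insertion of a reporter and Cre cassette ahead of the *Bhlhe41* start codon, so that it is carried by every cell, read from the *Bhlhe41* promoter, and ends translation of the protein. Controls thus also carried 1 such allele and Cre, and no wild-type sample was analysed here. Cells were sorted as live CD45lo Cx3cr1+ CD11b+ after Percoll enrichment, and each sample was pooled from several mice.

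RNA was hybridised in 1 colour to 6 SurePrint G3 arrays on 1 slide, and no array stood apart (correlation between arrays of 0.989 to 0.993 within a genotype and 0.985 to 0.989 between). The 3 B41HET arrays and B41KO replicate 1 lay in slide row 1, and B41KO replicates 2 and 3 in row 2. A fit with slide row as a block therefore compares B41KO replicate 1 alone with the 3 B41HET arrays, on the assumption that this lone array varies as the others do. Between 70.1% and 75.5% of probes were well above background on each array, and none of the spots was saturated. Signals below are log2 of the quantile-normalized intensity, and differences are B41KO minus B41HET from limma. A call needed an adjusted p of 0.05 or less over all probes and a difference of at least 0.5. All 10 microglia markers, among them *Tmem119*, *P2ry12* and *Sall1*, were well above background on all arrays, and *Fcrls* alone of them was called, at -0.76 (SE 0.07, adjusted p = 0.00584). The *Bhlhe41* transcript gave no check of the genotypes, as neither of its 2 probes was called. The brighter read 7.95, 7.87 and 7.65 in B41HET and 8.56, 7.84 and 8.21 in B41KO, with overlap and a difference of 0.38 (SE 0.20, adjusted p = 0.330). The other read 7.86, 7.58 and 7.40 against 7.96, 7.91 and 7.95, higher in every B41KO sample, with a difference of 0.33 (SE 0.13, adjusted p = 0.204). Precision is limited by the number of arrays, and the p-values rest on the spread between these samples, moderated by limma over all probes. Spread between mice within a pool was not measured.

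TREM receptors are cell surface proteins with a single immunoglobulin-like domain, found mostly on myeloid cells. Most have a short tail that cannot signal, and a charged residue in the membrane pairs them with Tyrobp, whose ITAM motif recruits the kinase Syk, or with Hcst, which recruits PI3 kinase. In microglia Trem2 senses lipids, lipoproteins and cell debris and supports phagocytosis and survival, whereas Trem1 amplifies inflammation in neutrophils and monocytes. The *Trem* genes lie together on mouse chromosome 17, and *Tyrobp* and *Hcst* lie side by side on chromosome 7.

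Promoters are shown because Bhlhe41 binds E-boxes of the form CACGTG, and because members of the chromosome 17 cluster differed in how they behaved. RefSeq promoter sequence on GRCm38.p6 was at hand for 4 of the 7 genes, and *Trem3*, *Treml2* and *Tyrobp* had none there. The 250 bases before each start are given 5′ to 3′ on the strand of the gene: *Trem1* at chr17:48232489-48232738 (plus strand), *Treml4* at chr17:48264045-48264294 (plus), *Trem2* at chr17:48346151-48346400 (plus) and *Hcst* at chr7:30419855-30420104 (minus). Capitals mark AGGAAGT on either strand (ACTTCCT on the other), a purine-rich motif of the kind read by the myeloid factor PU.1.
Trem1: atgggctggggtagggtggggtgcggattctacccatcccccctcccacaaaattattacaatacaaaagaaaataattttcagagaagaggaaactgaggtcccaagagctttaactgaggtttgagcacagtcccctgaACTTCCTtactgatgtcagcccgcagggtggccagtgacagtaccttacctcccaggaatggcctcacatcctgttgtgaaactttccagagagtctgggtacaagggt
Treml4: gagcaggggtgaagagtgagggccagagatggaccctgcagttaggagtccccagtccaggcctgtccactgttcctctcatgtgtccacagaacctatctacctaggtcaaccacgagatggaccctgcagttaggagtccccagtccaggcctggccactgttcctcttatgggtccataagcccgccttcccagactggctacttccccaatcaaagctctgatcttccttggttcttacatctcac
Trem2: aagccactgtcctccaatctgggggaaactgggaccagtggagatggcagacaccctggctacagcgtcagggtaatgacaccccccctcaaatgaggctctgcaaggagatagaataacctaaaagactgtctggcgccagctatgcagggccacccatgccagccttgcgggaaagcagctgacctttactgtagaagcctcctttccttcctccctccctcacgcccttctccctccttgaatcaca
Hcst: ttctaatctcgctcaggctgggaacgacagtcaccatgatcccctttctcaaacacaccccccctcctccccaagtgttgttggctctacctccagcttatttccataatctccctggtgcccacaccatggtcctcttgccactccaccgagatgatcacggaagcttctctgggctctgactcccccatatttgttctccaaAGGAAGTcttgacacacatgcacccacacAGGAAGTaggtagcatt
CACGTG was found in 0 of these 4 windows, and in 6.02% of 32851 mouse promoter windows of the same length. AGGAAGT, searched on both strands, was found in 7.69% of them. *Hcst* held it at 2 places, starting 46 and 17 bases before the gene start, and *Trem1* held it at 1 place, 109 bases before the start. *Trem2* and *Treml4* held neither motif. These are matches of letters only, and binding was not measured.

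Signal fell for *Trem3*, for 1 of the 2 *Trem1* probes and for 1 of the 2 *Treml4* probes, whereas *Trem2*, *Tyrobp* and *Hcst* passed no call. In all, 3 of 13 probes were called lower and 0 higher, where 3.38% of all probes were called lower, 1.72% higher and 5.09% in either direction. Those shares depend on the scaling, as the 1912 lower and 971 higher calls over all probes became 1523 and 1305 after a shift to the 75th percentile. At an unadjusted p under 0.05, 6 of the 13 were lower and 1 was higher in limma, where 12.1% of all probes were lower and 10.8% higher. With the brightest probe standing for each gene, 1 of 7 genes (*Trem3*) was called lower and 0 higher, against 4.05% and 1.44% of named genes (5.49% in either direction). The 6 receptor probes that read lower in B41KO had no overlap between genotypes, and neither had 5 probes that read higher, 11 of 13 in all. Such separation of 3 against 3 arrays was met by 29.6% of all probes and, by brightest probe, 32.1% of named genes, and an exact permutation test on a single probe cannot go below p = 0.1 here.

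**Figure D1:**
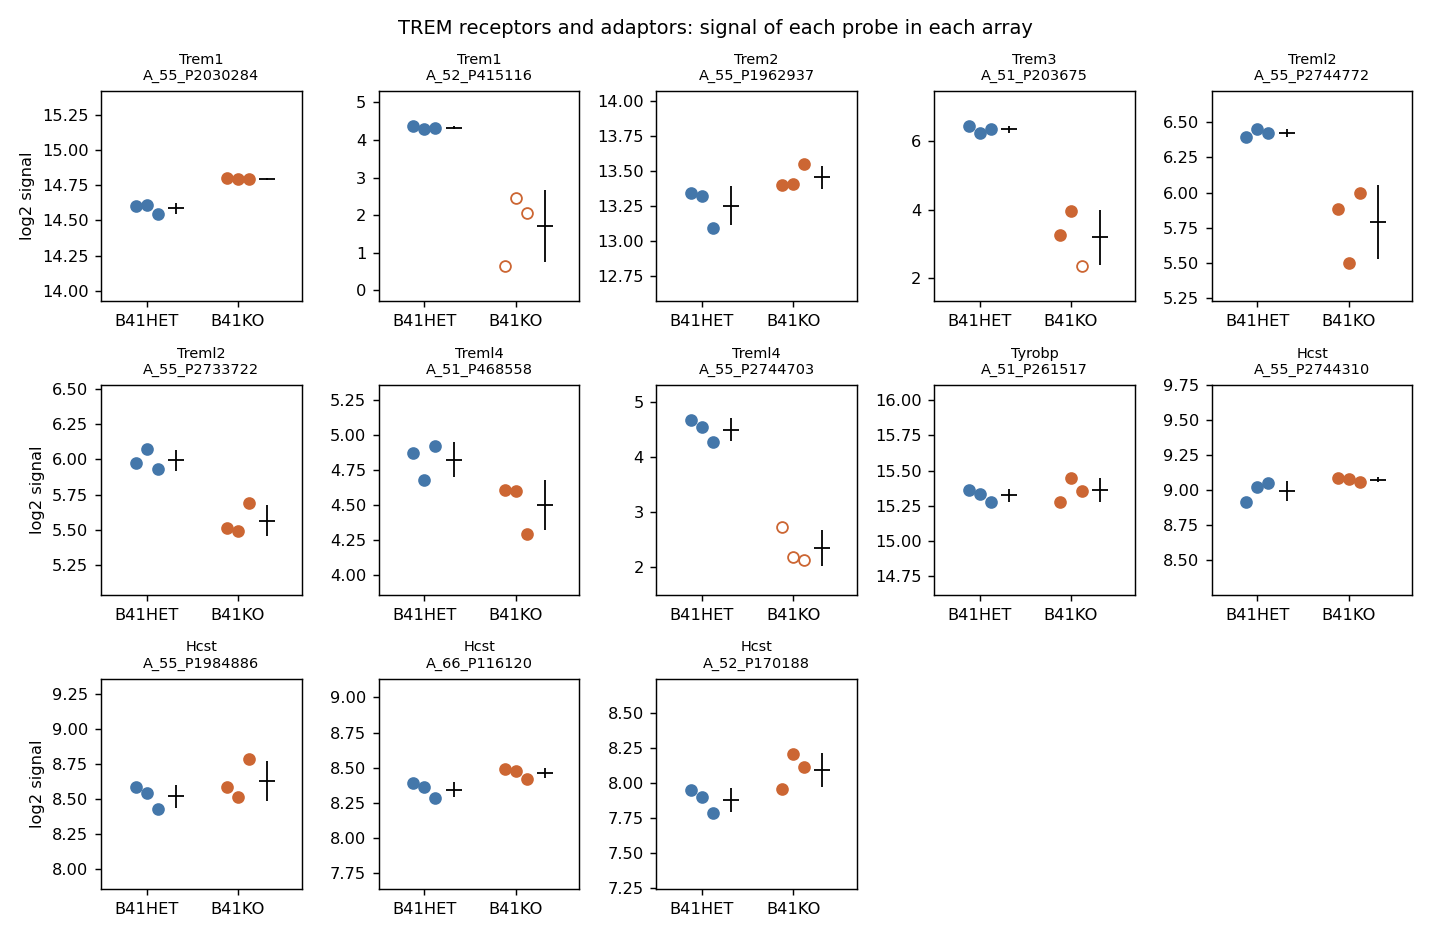
Log2 signal (y axis) of each of the 13 probes in the 3 B41HET and 3 B41KO arrays, in replicate order, with the mean and SD beside them. Filled points were well above background and open points were not. Axes span different ranges, and the 3 probes that were called lower (*Trem1* A_52_P415116, *Trem3* and *Treml4* A_55_P2744703) are those with open points in B41KO.

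*Trem3* encodes an activating receptor of mouse macrophages that pairs with Tyrobp. Its only probe, A_51_P203675, read 6.44, 6.24 and 6.35 in B41HET and 3.27, 3.95 and 2.35 in B41KO. Every B41KO sample lay below every B41HET sample, by a gap of 2.30, and the third B41KO sample was not well above background. The difference was -3.16 (SE 0.40, adjusted p = 0.0143). It kept its direction under all 16 alternatives, and was -1.13 after normexp background correction. Several alternatives, such as the replicate block or no fold threshold, could not move the fitted difference. The call was lost without B41HET replicate 1 (adjusted p = 0.0627), 2 (0.0648) or 3 (0.0565) and without B41KO replicate 1 (0.0527), at differences of -3.11 to -3.21. With slide row as a block the difference was -3.07 (adjusted p = 0.121), and B41KO replicate 1, in the same row as the B41HET arrays, read 3.27.

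Many markers of neutrophils, monocytes and border macrophages were lower in the same arrays as *Trem3*. Those of B, NK and T cells mostly were not. Of 12 neutrophil markers, 9 were called lower (median -2.35), among them *Ltf*, lactoferrin of neutrophil granules (-3.18), and *Ly6g* (-2.48), and their summed linear signal was 31519 to 35437 in B41HET and 6243 to 6672 in B41KO. In slide row 1 alone, which holds 1 B41KO array, their median was -2.36, and the dendritic cell median was -0.74. The 3 that were not called were *Mpo* (0.38, adjusted p = 0.156), *Elane* (-0.04, adjusted p = 0.915) and *Mmp8* (-0.61, adjusted p = 0.0535). Of 9 monocyte markers 4 were called lower (median -0.49), with summed signals of 2114 to 2255 and 971 to 1039. Of 7 markers of border macrophages 4 were lower (median -1.26), with sums of 2354 to 2541 and 1585 to 1781. That median is the fitted value of *Mrc1*, which no B41KO array measured well above background. Of 6 dendritic cell markers 2 were lower (median -0.29), with sums of 321 to 365 and 177 to 205. Their median rests in part on *Xcr1*, well above background on no array. B cell markers gave 1 of 6 lower (*Cd79a*, -0.99; sums of 1245 to 1438 and 1331 to 1370). NK and T cell markers gave 0 of 7, with 1 lower and 0 higher at an unadjusted p under 0.05 in limma, and sums of 396 to 429 and 418 to 431. All 12 neutrophil markers stayed well above background on every array of both genotypes. The part of these cells in the *Trem3* result was not tested, and fewer cells of a type and less RNA per cell cannot be told apart in these samples.

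*Trem1*, the inflammation-amplifying receptor, gave discordant probes. A_55_P2030284 read 14.61, 14.61 and 14.54 in B41HET and 14.80, 14.79 and 14.79 in B41KO. It was higher in each B41KO sample by a small margin and was not called (0.21, SE 0.06, 95% interval 0.05 to 0.37, adjusted p = 0.124). A_52_P415116 read 4.37, 4.30 and 4.32 in B41HET and 0.64, 2.46 and 2.06 in B41KO, and none of the 3 B41KO arrays measured it well above background. Its signal, as processed here, was therefore at least 2.67-fold lower in B41KO, taken against the lowest signal well above background on each array. In limma the fitted difference of -2.61, which uses those dim B41KO values, was called lower (adjusted p = 0.0349). That call was lost without B41HET replicate 1 (adjusted p = 0.112), 2 (0.113) or 3 (0.0969), without B41KO replicate 2 (0.0552) or 3 (0.0848), and with normexp, where the difference was -0.34. The mean of both probes, which takes in the B41KO values near background, was negative, opposite to the brighter probe. Which probe follows the *Trem1* transcript in these cells was not tested.

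*Treml4* encodes a receptor of macrophages and dendritic cells that binds dying cells. Its brighter probe, A_51_P468558, read 4.87, 4.68 and 4.92 in B41HET and 4.60, 4.59 and 4.29 in B41KO. The groups lay 0.075 apart, and the difference of -0.33 (SE 0.12, adjusted p = 0.189) was not called. A_55_P2744703, designed on another transcript of the gene, read 4.68, 4.55 and 4.27 in B41HET and 2.73, 2.18 and 2.12 in B41KO, all 3 of these not well above background. This was, as processed here, at least 3.01-fold lower in B41KO. In limma the fitted difference of -2.15, which uses those dim B41KO values, was called lower (adjusted p = 0.00698). It stayed called without any 1 sample (adjusted p of 0.0122 to 0.0435). With normexp the difference was -0.42, short of the fold required. Both *Treml4* probes pointed down.

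*Treml2* encodes TLT-2, a TREM-like receptor known from B cells, macrophages and neutrophils. A_55_P2744772 read 6.39, 6.45 and 6.43 in B41HET and 5.88, 5.50 and 6.0 in B41KO. All B41KO samples were lower, at -0.63 (SE 0.14, 95% interval -0.98 to -0.28), and the adjusted p of 0.0601 just missed the threshold. A_55_P2733722 read 5.97, 6.08 and 5.93 against 5.51, 5.49 and 5.69, again without overlap, at -0.43 (SE 0.09, adjusted p = 0.0492), which was short of the fold required. The brighter probe was called when dim probes were filtered out (adjusted p = 0.0285) and with a trended, robust variance (0.0354), and so was the mean of both probes (-0.53, adjusted p = 0.0432). After normexp the probes gave -0.24 (adjusted p = 0.148) and -0.25 (adjusted p = 0.0117), both short of the fold required, and with slide row as a block the brighter probe gave -0.55 (adjusted p = 0.325).

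Among brightest probes well above background on all arrays, that of *Treml2* varied most of the 7 genes (SD 0.39 over 6 arrays). Of 17201 other genes, those whose pattern over the 6 arrays was most like it were *Ces1d*, a carboxylesterase (Pearson r = 0.997), *Ube2m*, which conjugates NEDD8 (r = 0.992), and *Dlg4*, the scaffold PSD-95 (r = 0.992). The 6 points share the 2 genotypes, and none of these 3 genes was called (-0.32, -0.26 and -0.54).

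*Trem2*, the microglial receptor for lipids and debris, read 13.34, 13.32 and 13.09 in B41HET and 13.40, 13.41 and 13.55 in B41KO. Each B41KO sample was above each B41HET sample, by a gap of 0.06. The difference of 0.20 (SE 0.10, 95% interval -0.04 to 0.45, adjusted p = 0.302) was not called and was 0.12 to 0.25 when single samples were left out. An increase or a decrease of 0.5 or more lay outside that interval.

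*Tyrobp*, the ITAM adaptor on which Trem1, Trem2 and Trem3 depend, read 15.36, 15.33 and 15.27 in B41HET and 15.27, 15.45 and 15.35 in B41KO. The genotypes overlapped, with a difference of 0.04 (SE 0.08, 95% interval -0.15 to 0.23, adjusted p = 0.827), whose sign turned with slide row as a block (-0.05). *Hcst*, the adaptor that recruits PI3 kinase, had 4 probes. The brightest read 8.91, 9.02 and 9.05 in B41HET and 9.09, 9.08 and 9.06 in B41KO, and differed by 0.08 (SE 0.07, 95% interval -0.09 to 0.26, adjusted p = 0.566). The other 3 differed by 0.11, 0.12 and 0.21 (adjusted p = 0.590, 0.387 and 0.257). All 4 *Hcst* differences were positive, though relative to the median of all probes under a shift to the 75th percentile they ran from -0.05 to 0.09.

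**Figure D2:**
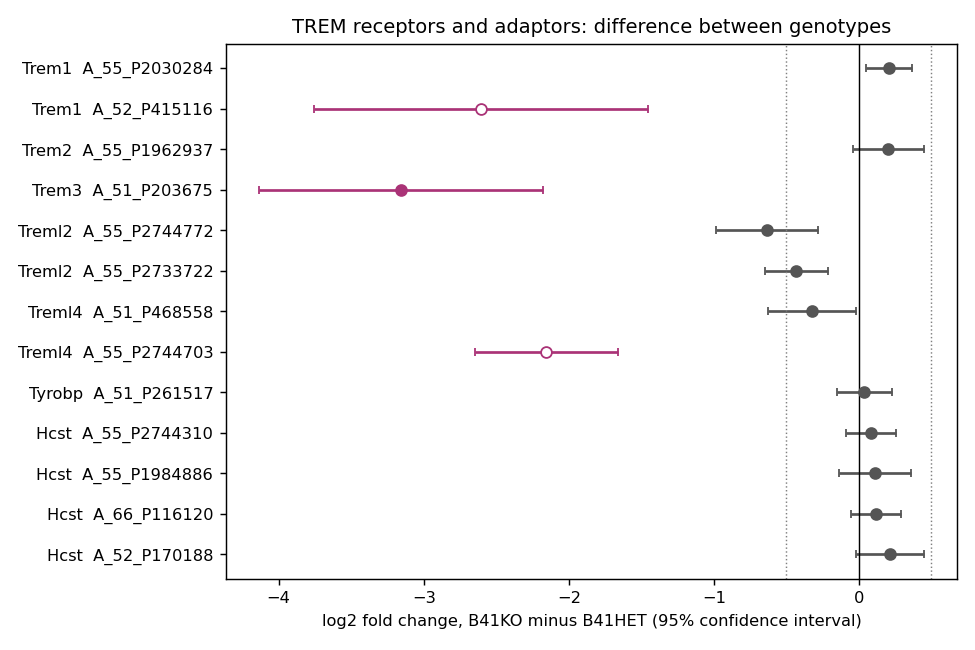
Log2 fold change (x axis, B41KO minus B41HET, with 95% confidence interval) of the 13 probes, with dotted lines at the fold needed for a call. Purple marks the 3 probes that were called, and open circles those not well above background on any B41KO array, whose fitted change is not a measured level; the intervals of *Tyrobp*, *Trem2* and *Hcst* all include 0.

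Along chromosome 17, the genes of the cluster did not move as one block. In the order *Trem1*, *Trem3*, *Treml4*, *Treml2*, *Trem2*, the brightest probes differed by 0.21, -3.16, -0.33, -0.63 and 0.20. *Treml1*, the platelet receptor next to *Trem2*, differed by 0.02 (adjusted p = 0.937), and its promoter held 1 CACGTG, starting 69 bases before the gene start. Of the 3 genes on either side, *A530064D06Rik*, next to *Trem1*, was called lower at -1.45 (SE 0.24, adjusted p = 0.0305, well above background on 2 of 3 B41KO arrays), and *Nfya*, a subunit of the NF-Y transcription factor, at -0.60 (SE 0.12, adjusted p = 0.0423). Near *Tyrobp* and *Hcst*, *Sdhaf1*, an assembly factor of succinate dehydrogenase, was called lower at -0.63 (SE 0.10, adjusted p = 0.0252). Each of these 3 calls held in only 1 of the 6 fits that left out a sample. *A530064D06Rik* was lost without B41HET replicate 1, 2 or 3 or B41KO replicate 1 or 2, *Nfya* without B41HET replicate 1 or 2 or any B41KO replicate, and *Sdhaf1* without any B41HET replicate or B41KO replicate 2 or 3, with adjusted p up to 0.104, 0.138 and 0.0995.

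**Figure D3:**
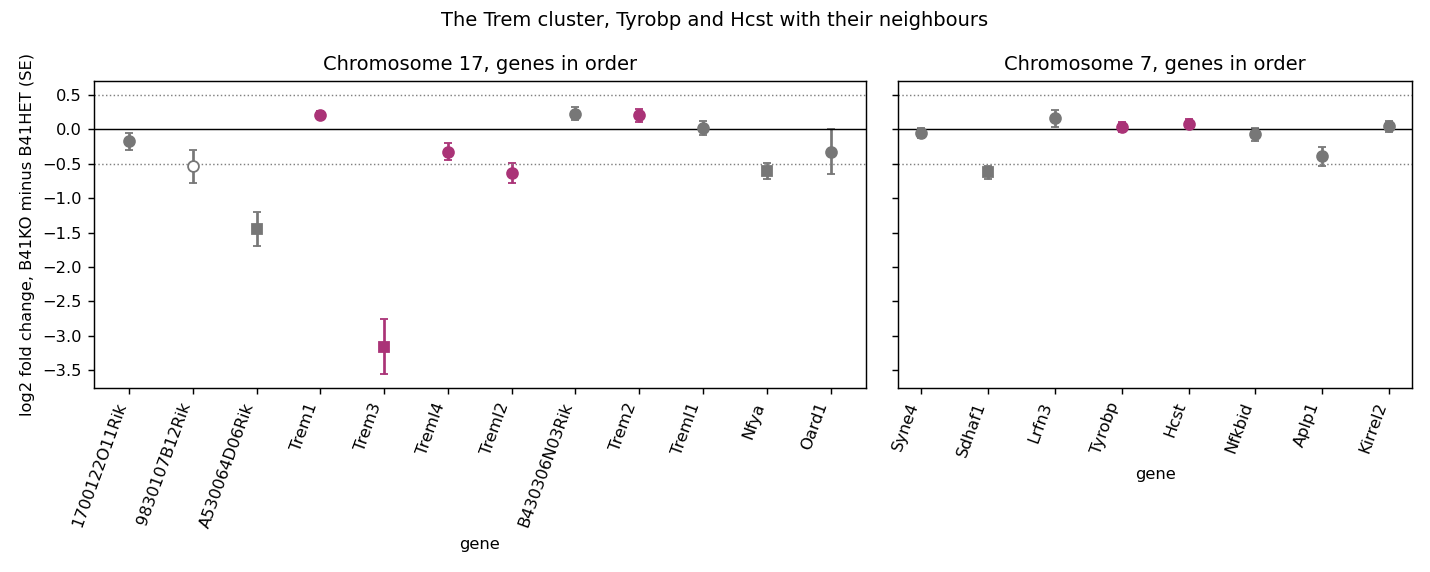
Log2 fold change with its SE (y axis) of the brightest probe of each gene, in gene order along the cluster on chromosome 17 (left) and around *Tyrobp* and *Hcst* on chromosome 7 (right). Purple marks the 7 TREM receptor and adaptor genes and grey their neighbours, squares were called and the open circle was not above background on any array; *Trem3* at -3.16 lies between *Trem1* and *Treml4*, at 0.21 and -0.33.

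The rest of the pathway was described from 7 lists of 86 genes, of which 83 had a probe. By brightest probe, 9 of 83 were called lower and 2 higher, against 4.05% and 1.44% of named genes, with a median of -0.03 beside 0.005 over all named genes. Lower calls numbered 4 to 8 when 1 sample was left out: 5 without B41HET replicate 1, 4 without B41HET replicate 2 and 5 without B41KO replicate 1 or 2. Higher calls numbered 0 without any 1 of the B41HET replicates or B41KO replicate 1, and 1 without B41KO replicate 2 or 3. With slide row as a block, where B41KO is 1 array, 2 lower and 0 higher calls were left.

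Of the 7 lists, the ligands held the largest change and 3 lower and 1 higher call among 10 genes (median 0.04). *Pglyrp1*, a neutrophil granule protein and ligand of Trem1, read 9.87, 9.85 and 9.55 in B41HET and 7.13, 7.31 and 7.28 in B41KO (-2.51, SE 0.12, adjusted p = 0.00129). *Lgals3*, the lectin galectin-3, which binds Trem2, read 8.94, 8.83 and 8.72 against 7.21, 7.23 and 7.19 (-1.62, SE 0.08, adjusted p = 0.00155). *Apoe*, the lipoprotein that Trem2 binds, read 14.85, 14.76 and 14.68 against 14.04, 14.07 and 14.11 (-0.69, SE 0.08, adjusted p = 0.0102). In all 3 the genotypes were apart on every array, and the first pair stayed called in all 6 fits without 1 sample, and were no longer called under the replicate block (adjusted p = 0.0569 for each). The *Apoe* call was lost without B41HET replicate 2 (adjusted p = 0.0560) and with slide row as a block (-0.72, adjusted p = 0.0859). *Clu*, clusterin, another lipoprotein that Trem2 binds, rose from 7.39, 7.38 and 7.34 to 7.93, 7.87 and 7.94 (0.54, SE 0.07, adjusted p = 0.0132), and the call was lost without any 1 of the B41HET replicates or B41KO replicate 1 (adjusted p up to 0.0665). The neutrophil, monocyte and border macrophage markers given above were lower in the same arrays as *Pglyrp1* and *Lgals3* (list medians of -2.35, -0.49 and -1.26). The last is the fitted value of *Mrc1*, not well above background on any B41KO array. The part of these cells in the changes of *Pglyrp1* and *Lgals3* was not tested. *Hmgb1*, a nuclear protein released by dying cells, was not called (0.43, adjusted p = 0.125).

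Of the enzymes that shed Trem2 and cut its stub, 1 of 8 measured was called. *Psenen*, a subunit of gamma-secretase, was lower at -0.56 (SE 0.08, adjusted p = 0.0202) on 1 of its 3 probes, the others not being called. That call held in 1 of 6 fits that left out a sample (lost without B41HET replicate 1 or 2 or any B41KO replicate, adjusted p up to 0.0862). *Adam17*, a protease that releases the Trem2 ectodomain, gave -0.44 (adjusted p = 0.0856). In the list, 7 of 8 differences were negative, with a median of -0.41, against 49.0% of all named genes negative. These take in *Aph1b*, not well above background on any B41KO array, and *Aph1c*, on no array at all. At an unadjusted p under 0.05, 5 of the 8 and 14.5% of all named genes were lower.

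Other receptors that pair with the adaptors gave 1 call among 12 measured (median 0.005). *Pilrb2*, an activating immunoglobulin-like receptor, read 8.31, 8.14 and 8.26 in B41HET and 7.08, 6.93 and 6.76 in B41KO (-1.31, SE 0.11, adjusted p = 0.00518). It stayed called in all 6 fits that left out a sample and lost its call with slide row as a block (-1.16, adjusted p = 0.0524) and under the replicate block (0.0678). The neutrophil, monocyte and border macrophage markers were lower in the same arrays as *Pilrb2*, and their part in its change was not tested. *Siglech*, a sialic acid receptor of microglia that signals through Tyrobp, gave 0.04 (adjusted p = 0.806), and *Sirpb1a* gave -0.20 (adjusted p = 0.457). The other ITAM adaptors, *Fcer1g* (0.14, adjusted p = 0.432) and *Cd247* (0.17, adjusted p = 0.303), gave 0 calls in limma and 0 at an unadjusted p under 0.05.

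Downstream of the adaptors, 3 of 27 kinases and scaffolds were called lower (median -0.04), all from the Src family that phosphorylates ITAM motifs. *Src* differed by -0.70 (SE 0.10, adjusted p = 0.0206), *Fyn* by -0.56 (SE 0.09, adjusted p = 0.0295) and *Fgr* by -0.52 (SE 0.10, adjusted p = 0.0450). Each was called in 1 of 6 fits that left out a sample. *Src* and *Fyn* were lost without B41HET replicate 1 or 2 or any B41KO replicate, and *Fgr* without any B41HET replicate or B41KO replicate 1 or 2 (adjusted p up to 0.0822, 0.107 and 0.134). Of the 2 *Src* probes, only 1 was called. The *Fyn* probe was dim (mean 4.65 in B41HET and 4.09 in B41KO), and its difference ran from -0.63 to -0.14 over 14 alternatives. The brightest members, *Pik3cd*, the delta catalytic subunit of PI3 kinase, and *Vav2*, a guanine nucleotide exchange factor, were not called (-0.18 and 0.13). Of the 4 *Pik3cd* probes, 1 dimmer probe was called lower.

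Among 12 inhibitors of the pathway, *Lilrb4a*, an inhibitory receptor with ITIM motifs, read 8.07, 8.16 and 7.76 in B41HET and 6.19, 6.10 and 5.81 in B41KO (-1.97, SE 0.15, adjusted p = 0.00455). It stayed called in all 6 fits that left out a sample and lost its call with slide row as a block (-1.81, adjusted p = 0.0536). The same marker lists (medians of -2.35, -0.49 and, as fitted for *Mrc1*, -1.26) were lower in the arrays where *Lilrb4a* was. The part of those cells in the change of *Lilrb4a* was not tested. *Inppl1*, the lipid phosphatase SHIP2, was called higher on only 1 of its 2 probes, at 0.64 (SE 0.10, adjusted p = 0.0226). That probe was not called in any of those 6 fits (adjusted p of 0.0501 to 0.0913). *Ptpn6*, the phosphatase SHP-1, gave -0.14 (adjusted p = 0.264), and *Dok3*, an adaptor that restrains Tyrobp signalling, gave -0.45 (adjusted p = 0.0255), short of the fold required. The list's median was -0.10.

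By brightest probe, 0 of 12 genes known to rise in microglia of damaged brain in step with Trem2 were called in limma. At an unadjusted p under 0.05, 2 were higher and 1 lower, near the 10.5% and 14.5% of all named genes. Of the 2 *Axl* probes, the dimmer was called lower. Of the 12, *Spp1* and *Gpnmb* were well above background on no array. The median was 0.07, and the largest difference was that of *Cst7*, a cystatin (0.62, adjusted p = 0.0726), named after its values were seen. The brightest were *Cadm1*, an adhesion molecule (0.17, adjusted p = 0.389), and *Cd9*, a tetraspanin, which read 12.39, 12.47 and 12.32 in B41HET and 12.79, 12.81 and 12.74 in B41KO (0.39, SE 0.07, adjusted p = 0.0392), apart on every array and short of the fold required.

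**Figure D4:**
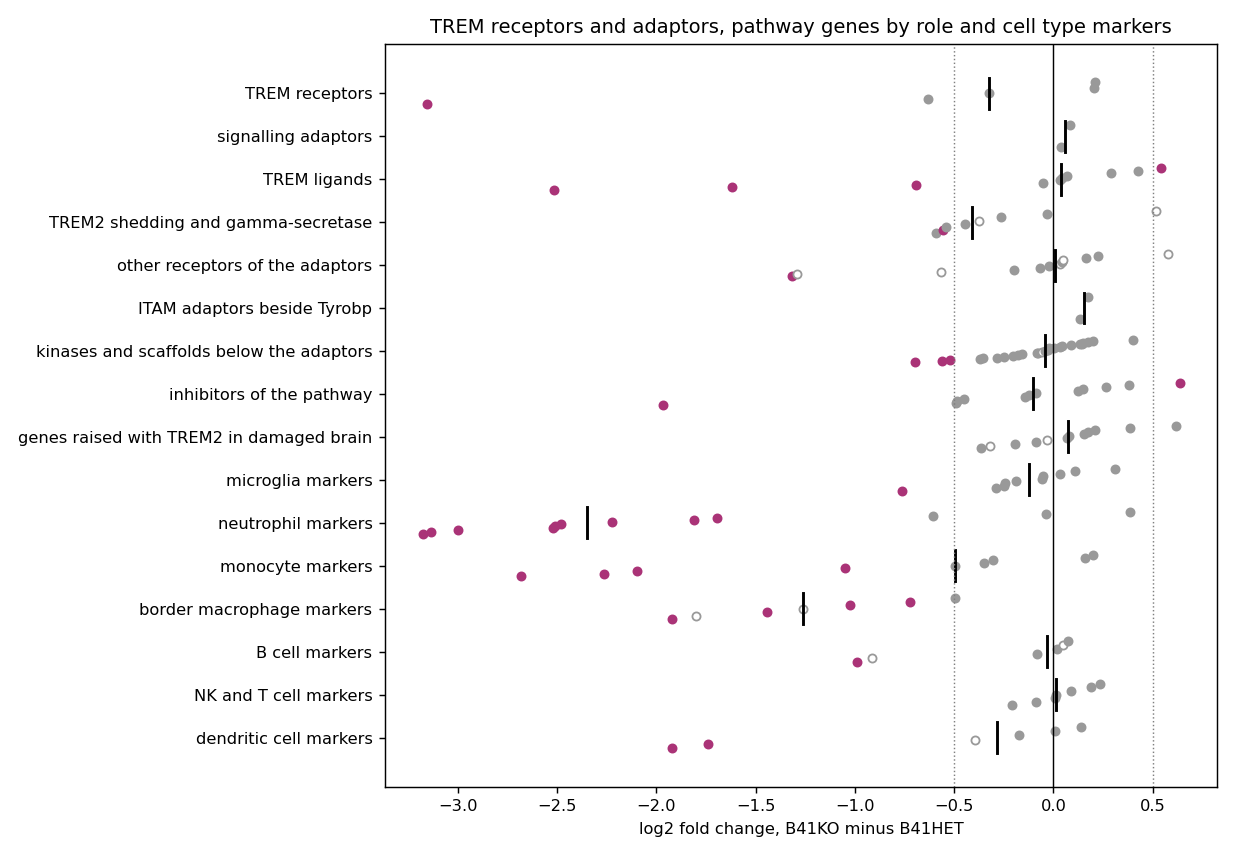
Log2 fold change (x axis, B41KO minus B41HET) of the brightest probe of each gene in the receptor, adaptor, pathway and marker lists, 1 point a gene and a black bar at the list's median. Purple points were called, open points had no array well above background in at least 1 genotype, and dotted lines stand at the fold needed for a call; the neutrophil list has its median at -2.35, and the medians of the adaptors and of the genes raised with Trem2 are 0.06 and 0.07.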

How the data were processed

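Sorted microglia were profiled on 6 arrays, 3 per genotype. The labels give 3 mice per genotype, whereas the methods describe each sample as a pool of mice, and samples were taken as the replicates. The deposited scanner output (Agilent Feature Extraction 11.5.1.1) holds intensities that were background-subtracted within each array and not normalized between arrays. The log2 values that the authors deposited served as an alternative only. Here control spots were left out, log2 intensities were quantile normalized, outlier spots were then left out, and spots were averaged per probe. Probes with at least 2 values per genotype (56601) were compared with limma 3.58.1 in R 4.3.3, with genotype as the only term and Benjamini-Hochberg adjustment over all probes. The script was tested on simulated data. A probe that no array of a genotype measured well above background gave a bound only. Probes were named through RefSeq accessions (GRCm38.p6), 33767 of 56605 (59.7%). The array design rests on mm9, so that no probe positions are given. Plots come from matplotlib 3.10.9 (Python 3.11.15).

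The 7 genes, the pathway and marker lists and the tests were chosen with earlier results of these data known. Named were all probes of the 7 genes, the called genes of each pathway list (at most 4) with its 2 brightest genes, called neighbours among 3 genes on either side, and the 3 genes most like the most variable member. Named markers were chosen after their values were seen. The alternatives were a shift to the 75th percentile, the authors' values, normexp with an offset of 50, removal of probes with fewer than 3 arrays well above background, no masking of outlier spots, a trended and robust variance, slide row or replicate number as a block, omission of single samples, no fold threshold, and averaging of a gene's probes.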

Additional observations from a re-analysis of the deposited data

How the results depend on the processing

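Leaving out each sample in turn gave 1 to 2 called lower among the 13 probes, 0 to 1 lower among the 7 genes, 0 to 0 higher in both, and 4 to 8 lower and 0 to 1 higher among pathway genes. Member probes called lower, 3 as reported, were 1 with normexp. Member genes called lower, 1 as reported, were 2 with the filter on dim probes, 2 with a trended and robust variance, 0 with slide row as a block and 4 with the mean over probes. Pathway genes called lower, 9 as reported, were 2 with slide row as a block. Those called higher, 2 as reported, were 1 with normexp, 0 with slide row as a block, 4 without a fold threshold and 1 with the mean over probes. Over all probes, 1912 lower and 971 higher calls became 1523 and 1305 with the 75th percentile shift, 1084 and 417 with normexp, 263 and 185 with slide row as a block, and 554 to 1019 and 242 to 509 without single samples. *Tyrobp* changed sign with slide row as a block (-0.048) and without B41KO replicate 2 (-0.0079, where leaving out single samples gave -0.0079 to 0.079), and *Trem1* with the mean over probes (-1.20), which for *Trem1* and *Treml4* takes in B41KO values near background. *Trem2*, *Treml2*, *Treml4*, *Trem3*, all *Hcst* probes and the dimmer *Trem1* probe kept their direction under every alternative run. Alternatives that altered only the variance, the call rule or the set of probes could not move these differences. The 75th percentile shift moved the median of all probes by 0.113. Relative to the median it left, *Trem3* was -3.18, *Trem2* 0.04, *Tyrobp* 0.04 and the brightest *Hcst* probe -0.05. The causes of these changes were not tested.

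Equally numbered samples of both genotypes deviated together only weakly (correlations of 0.03, 0.01 and 0.05), so the numbers were not taken as pairs. With the replicate number as a block, 0 of the 13 probes and 0 of the 7 genes were called lower, with adjusted p = 0.0808 for *Trem3*, 0.10 for the dimmer *Trem1* probe and 0.0569 for the dimmer *Treml4* probe. Of the pathway genes 1 (*Lilrb4a*) was called lower and 0 higher, and of all probes 40 and 2. Signal near background limits *Trem3*, the dimmer *Trem1* probe and the dimmer *Treml4* probe in B41KO.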
